A study of Mus musculus with 3 samples.

Results

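The constitutive proteasome genes are the genes for the standard core particle of the proteasome, its regulatory particles, its activators and its assembly factors. They were taken as every gene whose symbol reads Psma to Psmg followed by a number, without the interferon-inducible catalytic genes Psmb8, Psmb9 and Psmb10, and with 10 CPM or more in any library (CPM, counts scaled to a library total of 1000000). Of 27998 genes in each table, 47 symbols matched and 44 passed, all 44 at 10 CPM or more in every library. They comprised 14 core genes (Psma and Psmb), 25 regulatory genes (Psmc, Psmd and Psme) and 5 genes for assembly factors or a modulator (Psmf1 and Psmg1 to Psmg4). The 3 that did not pass were Psma8, a testis form of an alpha subunit, with 1 unique molecular identifier (UMI, a tag that marks 1 captured transcript) at steady state, 19 at day 1 and 12 at day 5, Psmb11, a thymus form of a beta subunit, with 0, 1 and 1, and Psmc3ip, with 12, 45 and 15. Psmc3ip shares only its symbol with the proteasome: its product acts in meiotic recombination.

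The cells were sciatic nerve macrophages of C57BL/6 mice, an inbred laboratory strain, profiled as single cells on the 10x Genomics platform. The groups were the uninjured nerve at steady state, the nerve 1 day after a crush injury, and the nerve 5 days after it, with 1 library each. How the cells were sorted, and from how many animals, is not given in the labels. The comparison addresses how macrophages of the nerve change after injury.

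The proteasome is a barrel of stacked rings that degrades proteins tagged with ubiquitin. The outer alpha rings gate the barrel, the inner beta rings hold the proteolytic sites, and a regulatory particle of a base and a lid binds the ubiquitin chain, removes it, and threads the unfolded protein inside. In macrophages the same machine also makes the peptides shown on MHC class I, and under interferon the standard catalytic subunits are replaced by those of the immunoproteasome.

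After filtering, 728 cells remained at steady state, 2793 at day 1 and 2059 at day 5, with 1656510, 7963091 and 5524496 UMIs and medians of 2238.5, 2555 and 2473 UMIs per cell. Between 2 and 11 cell barcodes were shared by any pair of libraries. The 7 macrophage markers were all detected and summed to 31254 CPM at steady state, 22903 at day 1 and 31197 at day 5. Most of that sum was Lyz2, at 20924, 19496 and 24196 CPM. C1qa was at 7911, 1558 and 5216 CPM, Csf1r at 773, 239 and 488, and Adgre1 at 402, 118 and 232. Fcgr1 went the other way, at 194, 510 and 322 CPM. The 7 monocyte markers summed to 269.8, 2664 and 1087 CPM, with Vcan at 0 at steady state, and the 9 epineurial macrophage markers summed to 12681, 307 and 2255 CPM. The part of these shifts in cell makeup in the proteasome values was not tested beyond the clusters described further on. The clusters cannot test it for day 1 against steady state, as none held enough cells in both libraries. With 1 library per group there is no replicate and no test. Every interval below is an exact 95% interval that covers counting error only, and a difference between libraries cannot be told apart from a difference between preparations.

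Most constitutive proteasome genes were higher at day 1 than at steady state, and their summed level at day 5 lay between the other two. Summed over the 44 genes, the level was 5119 CPM at steady state, 9681 at day 1 and 6703 at day 5. That is 1.89-fold higher at day 1 (interval 1.85 to 1.93) and 1.31-fold higher at day 5 (1.28 to 1.34), both against the same steady-state library. At 1.5-fold or more, 31 of 44 were higher and 0 lower at day 1, where 29.9% of all 7203 genes tested were higher and 24.5% lower. At 2-fold or more, 18 of 44 were higher (16.6% of all genes), and 41 of 44 had a ratio above 1 (54.9%). Their median log2 ratio was 0.85, against 0.12 over all genes tested. The level was highest at day 1 in 41 of 44, the exceptions being Psmf1 and Psmg2, highest at steady state, and Psme4, highest at day 5. The ratio intervals of these exceptions crossed 1 in every comparison, so their order is within counting error.

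**Figure D1:**
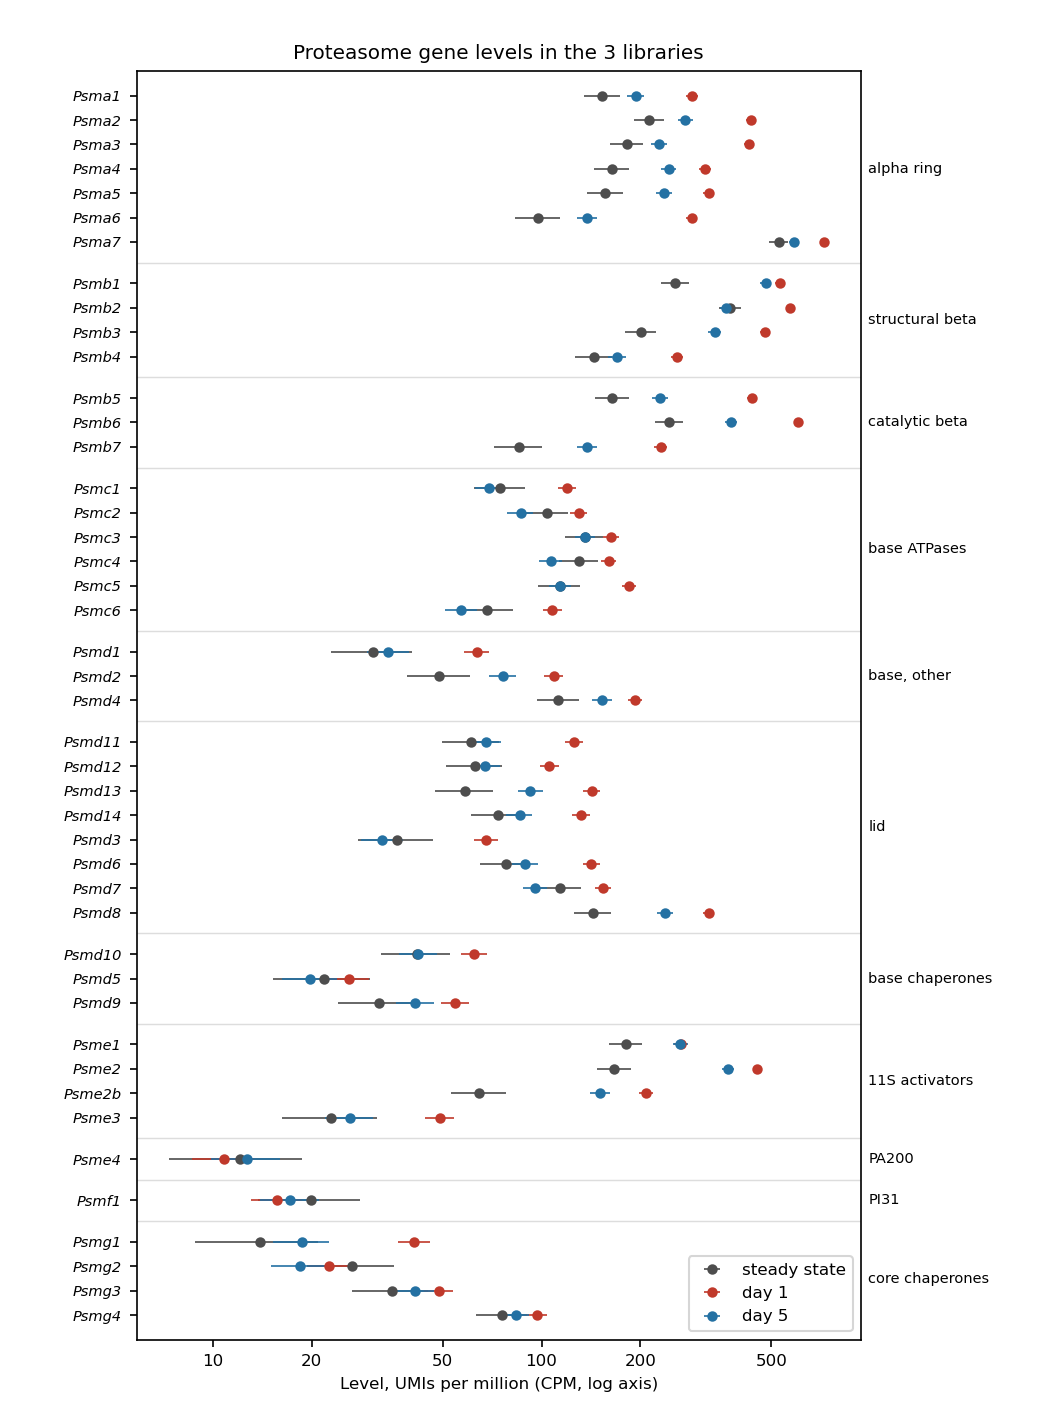
Level of each of the 44 genes in the 3 libraries, in CPM on a log axis, grouped by role; points are library sums and bars are exact 95% counting intervals. The day 1 point lies to the right of both others in 41 of 44 genes, and the steady-state and day 5 points lie close together for the base ATPases.

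Fewer genes were past that fold at day 5. Against steady state, 10 of 44 were 1.5-fold or more higher and 0 lower, a share close to the background, in which 22.0% of 7198 genes were higher and 20.5% lower. The median log2 ratio was 0.23 over the 44 and 0.03 over all genes tested. The counting interval of the ratio lay above 1 in 20 genes, below 1 in 3 (Psmc2, Psmc4 and Psmd7) and across 1 in 21. Over all 7198 genes it lay above 1 in 26.7% and below 1 in 24.8%. Between the crush libraries, 22 of 44 were 1.5-fold or more lower at day 5 than at day 1 and 0 higher, against 16.3% and 13.6% of 7197 genes, with medians of -0.59 and -0.08. This last count moved with the scaling: over a total without mitochondrial genes, ribosomal protein genes and the 20 most abundant genes, 10 of 44 were lower and 0 higher. That scaling shifted the median of all genes by 0.20 between day 5 and day 1 and by -0.13 between day 1 and steady state. It placed 21.2% of genes with a UMI in both crush libraries higher and 8.80% lower at day 5, in place of 13.6% and 16.2%. The median of the 44 was then -0.38, against 0.12 for all genes.

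**Figure D2:**
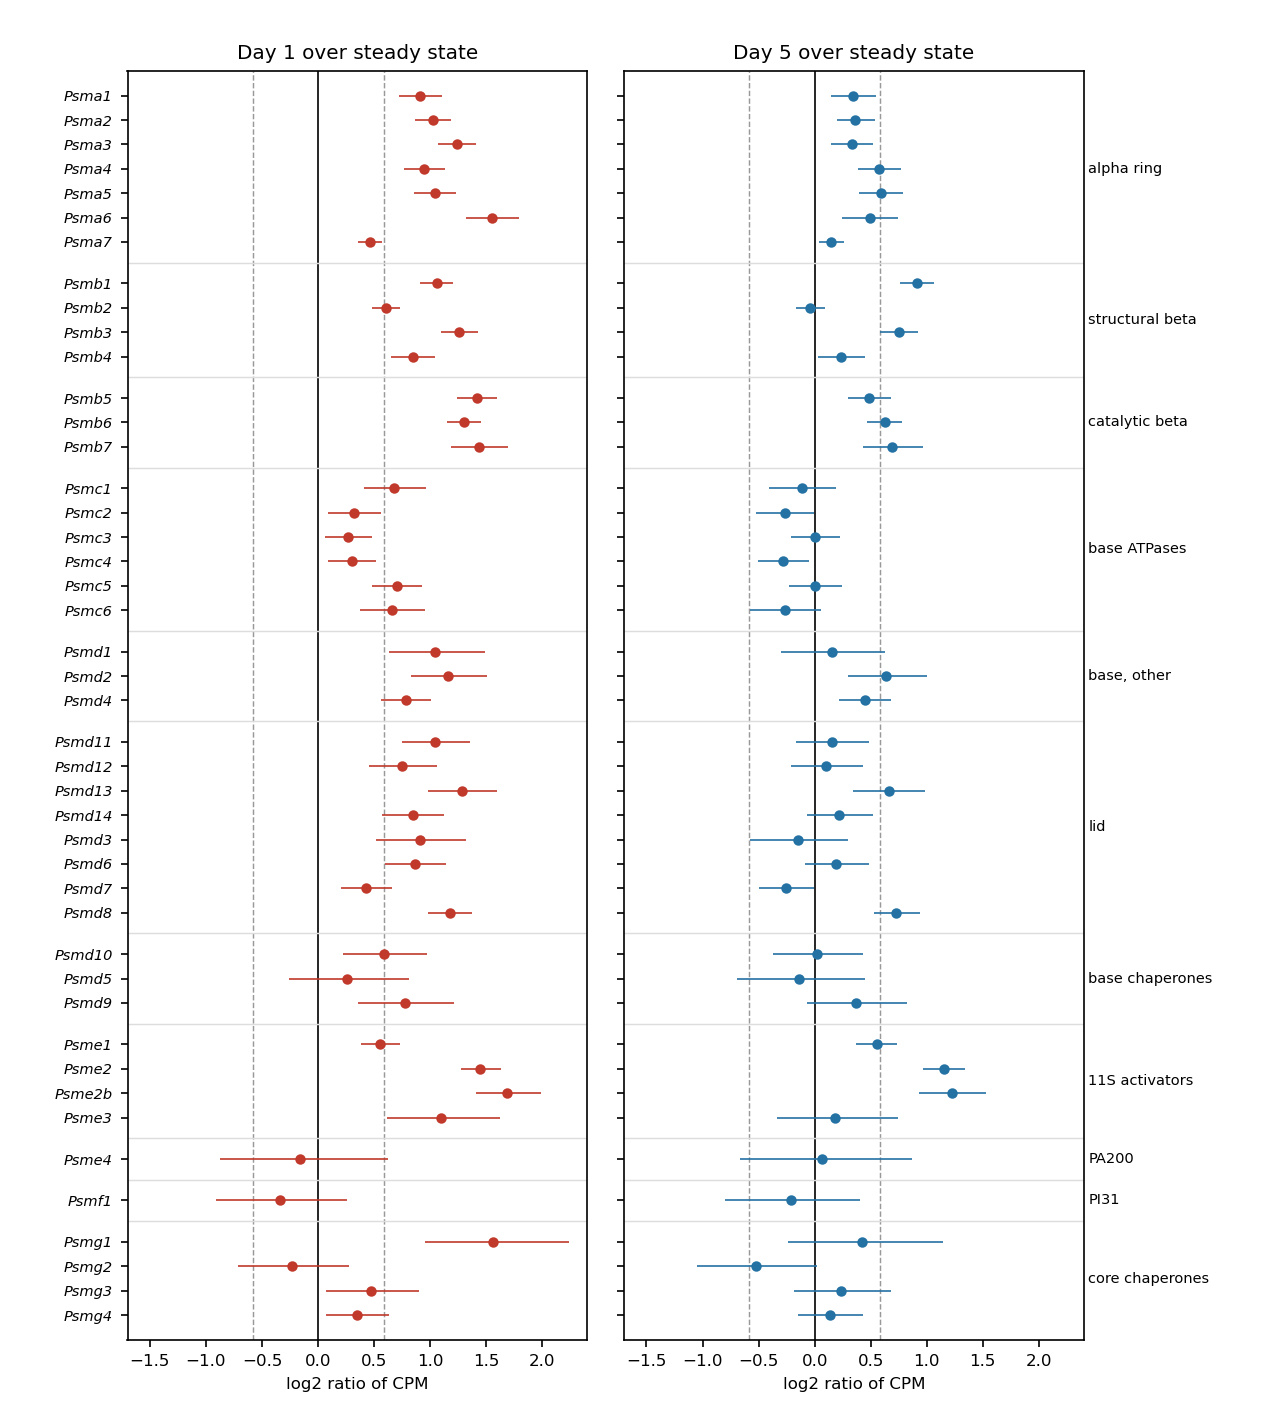
Log2 ratio of CPM for each of the 44 genes, at day 1 over steady state (left) and day 5 over steady state (right), with exact 95% counting intervals; dashed lines mark 1.5-fold. On the left 31 points lie past the upper line and on the right 10 do, with none past the lower line on either side.

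The 7 alpha genes, which form the gated outer rings, summed to 1492 CPM at steady state, 2797 at day 1 and 1898 at day 5. The ratio was 1.87 at day 1 (1.80 to 1.95) and 1.27 at day 5 (1.22 to 1.33), and 6 of 7 were past 1.5-fold at day 1. Psma6 differed most, with 97.8 CPM at steady state, 286 at day 1 and 138 at day 5. Its day 1 level stood apart from the other 2, 2.93-fold above steady state (2.49 to 3.45), and at day 5 it was 0.481 of day 1 (0.442 to 0.522). Psma3 followed with 182, 428 and 228 CPM, 2.36-fold higher at day 1 (2.09 to 2.66) and at 0.534 of that level at day 5. Psma2 was at 213, 433 and 274 CPM and Psma5 at 156, 322 and 236 CPM, both just over 2-fold higher at day 1, though reads of Psma2 can overlap the same-strand gene AW209491. Psma4 and Psma1 were 1.92-fold and 1.88-fold higher. Psma7 was the exception among the alpha genes. It held the most UMIs of the 44 genes, at 527, 726 and 585 CPM, and was only 1.38-fold higher at day 1 (1.28 to 1.48).

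Psma6 lies at chr12:55384222-55418454 on the plus strand (GRCm38). The 250 bases before its RefSeq start site (GRCm38.p6, chr12:55383972-55384221, plus strand) are shown because it had the largest day 1 difference among the core genes. Capitals mark CCAAT, the box bound by the factor NF-Y, 29 bases before the start site, and its reverse complement 136 bases before it.
Psma6: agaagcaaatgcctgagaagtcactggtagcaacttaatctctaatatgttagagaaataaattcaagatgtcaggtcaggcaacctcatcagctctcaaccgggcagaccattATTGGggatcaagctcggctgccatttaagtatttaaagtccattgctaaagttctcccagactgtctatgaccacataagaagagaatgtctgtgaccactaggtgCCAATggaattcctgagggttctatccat

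The 4 structural beta genes, whose subunits sit in the inner rings without a proteolytic site, summed to 975, 1838 and 1353 CPM. All 4 were 1.5-fold or more higher at day 1, but they parted at day 5. Psmb1 stood at 255 CPM at steady state, 531 at day 1 and 481 at day 5, so that both crush libraries were well above steady state (2.08-fold and 1.88-fold). Psmb3 was similar in order, at 200.4, 478 and 337 CPM, and was 1.68-fold above steady state at day 5 (1.50 to 1.90). Psmb2, in contrast, was at 375, 569 and 365 CPM, with its day 5 level at 0.973 of steady state (0.889 to 1.07). Psmb4 was at 144, 259 and 170.2 CPM and lay between these patterns. Of the 14 core genes, only Psmb2 and Psma7 had intervals wholly below the ratio of the summed core in both comparisons with steady state.

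The 3 standard catalytic genes had the largest summed day 1 ratio of the role groups. Together they summed to 494 CPM at steady state, 1269.6 at day 1 and 745 at day 5, which was 2.57-fold higher at day 1 (2.39 to 2.76) and 1.51-fold higher at day 5 (1.40 to 1.63). Psmb5, which carries the chymotrypsin-like site, had 164 CPM at steady state, 437 at day 1 and 229.7 at day 5, and was 2.66-fold higher at day 1 (2.35 to 3.02). Psmb6, which carries the caspase-like site, had 244, 602 and 377 CPM and was 2.46-fold higher (2.22 to 2.73). Psmb7, which carries the trypsin-like site, had 85.1, 230.3 and 138 CPM and was 2.71-fold higher (2.28 to 3.23). The 3 intervals overlapped one another at day 1, and the ratios were not compared directly. At day 5 all 3 were above steady state, at 1.40-fold for Psmb5, 1.54-fold for Psmb6 and 1.62-fold for Psmb7.

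The promoters of Psmb5 and Psmb6 are shown because both catalytic genes hold the antioxidant response element TGACNNNGC close to the start site. This is the element that the factors Nfe2l1 and Nfe2l2 bind. Psmb5 is read from the minus strand of chr14:54614119-54618022 and Psmb6 from the plus strand of chr11:70525367-70527858 (GRCm38). The runs are the 250 bases before the RefSeq start sites (GRCm38.p6), at chr14:54617996-54618245, minus strand, and chr11:70525107-70525356, plus strand. Capitals mark the element, which begins 47 bases before the start site in Psmb5 and 9 bases before it in Psmb6.
Psmb5: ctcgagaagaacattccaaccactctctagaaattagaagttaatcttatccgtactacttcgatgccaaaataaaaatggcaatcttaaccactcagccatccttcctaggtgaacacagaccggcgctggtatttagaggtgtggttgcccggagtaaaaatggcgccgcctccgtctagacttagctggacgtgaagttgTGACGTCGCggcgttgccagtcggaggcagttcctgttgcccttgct
Psmb6: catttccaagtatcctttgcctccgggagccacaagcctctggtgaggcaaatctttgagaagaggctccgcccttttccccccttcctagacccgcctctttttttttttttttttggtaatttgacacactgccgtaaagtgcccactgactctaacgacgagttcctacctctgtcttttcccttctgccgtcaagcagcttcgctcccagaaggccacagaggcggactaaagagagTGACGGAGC

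Over the whole set, RefSeq promoter windows of 300 bases (250 before and 50 after the start site) were matched for 37 of 44 genes. Psmb1, Psmb2, Psmb7, Psmc3, Psmd3, Psmd7 and Psmg2 had no entry. TGACNNNGC stood on either strand in 6 of 37 (16.2%: Psmb5, Psmb6, Psmc6, Psmd12, Psmd9 and Psme4), and in 14.0% of all 27025 genes with a window. CCAAT stood on either strand in 12 of 37 (32.4%) and in 41.1% of all genes. A match is a description of the letters in the window.

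The immunoproteasome genes, whose products take the places of these 3 subunits, did not follow the same course. Psmb8, the counterpart of Psmb5, was at 436 CPM at steady state, 526 at day 1 and 601 at day 5. Psmb9, the counterpart of Psmb6, was at 113, 155 and 218 CPM, and like Psmb8 had its highest level at day 5. Psmb10, the counterpart of Psmb7, was at 134, 244 and 209.8 CPM, highest at day 1. Summed, the 3 immunoproteasome genes were 1.35-fold higher at day 1 (1.27 to 1.44) and 1.51-fold higher at day 5 (1.41 to 1.61). UMIs of immunoproteasome genes per UMI of the standard catalytic genes were 1.38 at steady state (1.26 to 1.52), 0.729 at day 1 (0.707 to 0.751) and 1.38 at day 5 (1.33 to 1.44). The ratio of the 2 sets was thus lower at day 1 alone, and at day 5 the interval of the ratio overlapped that at steady state.

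**Figure D3:**
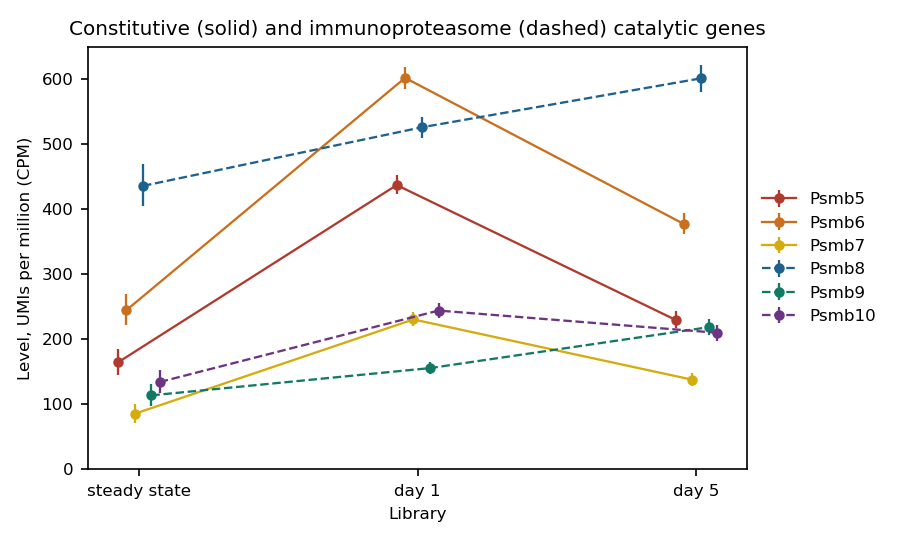
Level of the standard catalytic genes (solid lines) and of their immunoproteasome counterparts (dashed lines) in each library, in CPM, with exact 95% counting intervals. Psmb5, Psmb6 and Psmb7 peak in the day 1 library, while Psmb8 and Psmb9 are highest in the day 5 library.

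The 25 regulatory genes summed to 1987 CPM at steady state, 3553 at day 1 and 2528 at day 5. That was 1.79-fold higher at day 1 (1.72 to 1.85) and 1.27-fold at day 5 (1.22 to 1.32), against 1.99-fold (1.94 to 2.05) and 1.35-fold (1.31 to 1.39) for the 14 core genes. Core UMIs per regulatory UMI were 1.49 at steady state (1.43 to 1.56), 1.66 at day 1 (1.64 to 1.69) and 1.58 at day 5 (1.55 to 1.61). Their log2 ratios at day 1 spread from -0.16 (Psme4) to 1.69 (Psme2b), and those of the core genes from 0.46 (Psma7) to 1.55 (Psma6).

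The 6 ATPase genes of the base, Psmc1 to Psmc6, form the ring that unfolds substrates, and differed least among the structural parts of the complex. They summed to 625 CPM at steady state, 865 at day 1 and 569 at day 5, a ratio of 1.38 at day 1 (1.30 to 1.48) and of 0.909 at day 5 (0.847 to 0.976). The day 5 sum stayed below steady state in each of the 7 other settings of scaling and of cells, at 0.865 to 0.956. Psmc5 had the largest day 1 ratio of the 6, at 113, 185 and 114 CPM, with its day 5 and steady-state levels nearly equal. Psmc1 (74.9, 119.9 and 69.3 CPM) and Psmc6 (68.2, 108 and 56.8 CPM) were also past 1.5-fold at day 1. Psmc2, Psmc3 and Psmc4 were at 1.25-fold, 1.20-fold and 1.23-fold. Against steady state at day 5, 0 of 6 were past 1.5-fold in either direction, and Psmc2 and Psmc4 had intervals below 1 (0.697 to 0.996 and 0.703 to 0.966). UMIs of the catalytic genes per UMI of the ATPase genes were 0.790 at steady state (0.720 to 0.866), 1.47 at day 1 (1.42 to 1.51) and 1.31 at day 5 (1.25 to 1.37), so that both crush libraries lay above steady state.

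The other base genes differed about as much as the alpha rings. Psmd2, a scaffold that docks ubiquitin carriers, was at 48.9, 109 and 76.2 CPM, 2.23-fold higher at day 1 (1.78 to 2.84) and 1.56-fold at day 5. Psmd1, the second scaffold of the base, was at 30.8, 63.5 and 34.2 CPM, 2.06-fold higher at day 1 and at 0.538 of that level at day 5 (0.453 to 0.638), though its reads can overlap the same-strand gene Gm21972. Psmd4, a ubiquitin receptor, was at 112, 193 and 153 CPM and 1.72-fold higher at day 1.

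The 8 lid genes summed to 627, 1192 and 768 CPM, with ratios of 1.90 at day 1 (1.78 to 2.03) and 1.23 at day 5 (1.14 to 1.31). At day 1, 7 of 8 were past 1.5-fold, Psmd7 being the exception. Psmd13 was at 58.6, 142 and 92.5 CPM, the largest day 1 ratio of the lid at 2.43 (1.97 to 3.02). Psmd8 was at 143, 323 and 237 CPM, 2.26-fold higher at day 1 and 1.66-fold at day 5 (1.44 to 1.91). Psmd11, whose product is a scaffold subunit of the lid, was at 61.0, 125 and 67.9 CPM. Psmd13 and Psmd8 were the lid genes that were still past 1.5-fold at day 5.

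Psmd14, the enzyme that cuts the ubiquitin chain from the substrate, was at 73.6, 132 and 85.8 CPM and 1.79-fold higher at day 1 (1.49 to 2.18). Its partner Psmd7, which has no catalytic activity, was at 114, 154 and 95.6 CPM, only 1.35-fold higher at day 1 and at 0.838 of steady state at day 5 (0.708 to 0.994). The intervals of this pair overlapped at day 1, but the 2 ratios were not compared directly, so the overlap does not show that they were alike. Psmd3 was at 36.2, 67.8 and 32.8 CPM, and its day 5 level was 0.483 of day 1 (0.406 to 0.573), 1 of 3 genes at 2-fold or more lower between the crush libraries, with Psma6 and Psmg1 (5.43% of all genes). None of the 44 was 2-fold or more higher in that comparison (5.89% of all genes). Psmd6 and Psmd12 were 1.82-fold and 1.68-fold higher at day 1.

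The chaperones of base assembly, Psmd5, Psmd9 and Psmd10, summed to 95.4, 143 and 103 CPM. Their sum was 1.50-fold higher at day 1 (1.27 to 1.78) and 1.08-fold at day 5, with an interval across 1 (0.905 to 1.30). Psmd9 alone was past 1.5-fold at day 1, at 32.0, 54.6 and 41.3 CPM. These genes rest on 36 to 69 UMIs each at steady state, which limits what can be seen.

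The PA28 genes, whose products cap the core particle in place of the regulatory particle and are induced by interferon, are Psme1, Psme2 and the copy Psme2b. Of the 44 genes, Psme2b and Psme2 had the largest ratios at day 5 against steady state. Psme2 was at 167 CPM at steady state, 454 at day 1 and 370.2 at day 5, 2.73-fold higher at day 1 (2.41 to 3.09) and 2.22-fold at day 5 (1.96 to 2.53). Psme2b was at 64.6, 208 and 150.6 CPM, 3.22-fold (2.65 to 3.96) and 2.33-fold (1.90 to 2.88) higher. Reads of these 2 genes may not be assigned cleanly to 1 of the near-identical copies. Their longest coding transcripts are identical at 99.4% of the aligned bases. Psme2 lies at chr14:55587441-55591113 and Psme2b at chr11:48945354-48946190 (both minus strand, GRCm38), the second inside the same-strand genes 9930111J21Rik1 and Gm12185. The values of Psme2 and Psme2b are thus uncertain, those of Psme2b also because of this overlap. They were the only 2 of the 44 at 2-fold or more above steady state at day 5, against 10.7% of all genes.

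Psme1, whose product forms the PA28 ring with that of Psme2, lies next to it on chromosome 14 and differed less. It was at 180.5, 265 and 265 CPM, 1.47-fold higher at both times (1.30 to 1.66 and 1.29 to 1.67). The levels of Psme1 at day 1 and day 5 did not differ beyond counting error. Psme3, which forms a separate nuclear cap, was at 22.9, 49.1 and 26.1 CPM, 2.14-fold higher at day 1 (1.53 to 3.07) and 1.14-fold at day 5, with an interval across 1. At day 5, Psme1, Psme2 and Psme2b thus had intervals above 1, and Psme3 did not.

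Psme4, the gene of the PA200 cap, and Psmf1, the gene of the modulator PI31, had intervals across 1 in all 3 comparisons. Psme4 was at 12.1, 10.8 and 12.7 CPM on 20, 86 and 70 UMIs, and its ratio at day 1 was 0.895 (0.545 to 1.54). Psmf1 was at 19.9, 15.7 and 17.2 CPM, with a ratio at day 1 of 0.788 (0.533 to 1.19). The direction of both flipped with the scaling or the choice of cells in every comparison, so none is given.

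The 4 Psmg genes encode chaperones of core assembly, and they did not move together. Psmg1 was at 13.9, 40.9 and 18.6 CPM, 2.95-fold higher at day 1 (1.93 to 4.72) from 23 UMIs at steady state. Psmg2, whose product pairs with that of Psmg1, was at 26.6, 22.6 and 18.5 CPM, with a day 1 ratio of 0.851 (0.609 to 1.21) that changed sign in some settings. The intervals of this pair of partners did not overlap at day 1. Psmg3 and Psmg4, which form the other pair, were 1.39-fold and 1.27-fold higher at day 1, on 35.0, 48.6 and 41.3 CPM and on 76.1, 96.7 and 83.8 CPM. Reads of Psmg3 can overlap the same-strand gene Gm26938.

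Of 23 genes that work with the proteasome, 22 were found in the tables and 21 were at 10 CPM or more in any library. Nploc4 fell short, at 7.85, 8.54 and 7.96 CPM. At day 1, 10 of 21 were 1.5-fold or more higher and 4 lower, beside 29.9% and 24.5% of all genes, with a median log2 ratio of 0.51. At day 5 the counts were 3 higher and 2 lower of 21, shares below the 22.0% and 20.5% of all genes, with a median of 0.18. Shfm1, a small lid subunit without the Psm name, was at 578, 1270.1 and 1001 CPM, 2.20-fold higher at day 1 (2.06 to 2.35) and 1.73-fold at day 5. Pomp, the factor that completes the core particle, was at 389, 679 and 548 CPM and 1.74-fold higher at day 1. Nfe2l1, the factor that raises proteasome genes when proteolysis is impaired, was at 16.3, 33.3 and 24.4 CPM, 2.04-fold higher at day 1 (1.37 to 3.16). Its relative Nfe2l2 was at 112, 134 and 155 CPM. Vcp, the unfoldase that extracts ubiquitinated proteins, was at 103, 178 and 131 CPM. On the other side, the ubiquitin shuttle genes Ubqln2 and Ubqln4, the proteasome activator Zfand5, and Akirin2, which brings proteasomes into the nucleus, were lower at day 1. Akirin2 was at 61.0, 28.9 and 47.4 CPM and Zfand5 at 552, 350.2 and 369 CPM.

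The ubiquitin genes described here differed in direction. Ubb, a polyubiquitin gene, was at 4395 CPM at steady state, 3485 at day 1 and 3395 at day 5, a ratio of 0.793 at day 1 (0.773 to 0.814). Its values are uncertain, as reads of near-identical repeats may not be assigned cleanly to 1 gene. Rps27a, which encodes ubiquitin fused to a ribosomal protein, was higher after the crush, at 1656, 2484 and 2601 CPM. Genes of another large complex, the CCT chaperonin (7 of 8 measured), summed to 844, 994 and 739 CPM, 1.18-fold higher at day 1 (1.11 to 1.25). The summed day 1 ratios of the 44 proteasome genes and of CCT were each computed against the same steady-state library. Between the crush libraries both sums were lower at day 5. The CCT sum was 0.743 of day 1 (0.716 to 0.772) and that of the 44 genes 0.692 (0.684 to 0.701). Against steady state, ribosomal protein genes were 1.06-fold higher at day 1 and 1.26-fold at day 5.

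The day 1 difference was also seen in the UMIs per cell. With every cell thinned to 1000 UMIs, which left out 90, 297 and 282 shallower cells, the mean number of core UMIs per cell was 2.93 at steady state, 5.69 at day 1 and 3.89 at day 5. Regulatory UMIs per thinned cell were 1.96, 3.47 and 2.39. Cells without a core UMI made up 12.2% at steady state, 1.16% at day 1 and 6.08% at day 5 after thinning (7.01%, 1.15% and 3.16% before). Every living cell uses these genes, so no cell type could serve as a background for this share. Without thinning, the core genes took a median of 0.252% of a cell's UMIs at steady state, 0.543% at day 1 and 0.355% at day 5. The middle range of cells (lower to upper quartile) ran from 0.148% to 0.384% at steady state and from 0.386% to 0.712% at day 1. At equal depth the same ranges overlapped, with 1 to 4 core UMIs per thinned cell at steady state and 3 to 7 at day 1. For the regulatory genes they overlapped without thinning too, at 0.0835% to 0.275% and 0.202% to 0.443%. Cells below and above the median depth of their library gave core levels of 2759 and 3064 CPM at steady state, 5411 and 6082 at day 1, and 3690.1 and 4105 at day 5.

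**Figure D4:**
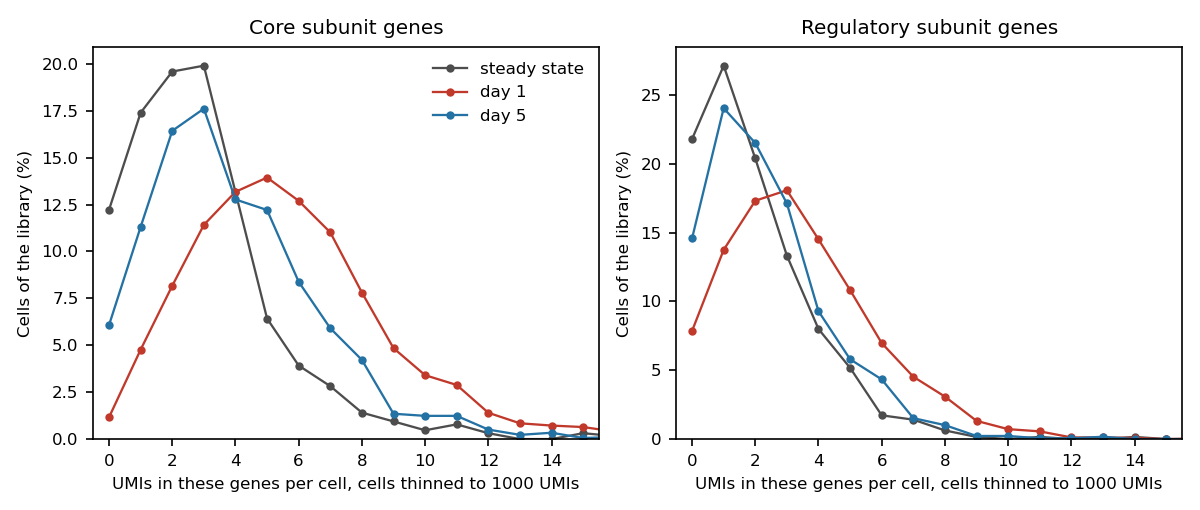
Share of cells (in percent of the cells of a library) by the number of core (left) and regulatory (right) UMIs per cell, after each cell was thinned to 1000 UMIs. The day 1 curve lies to the right of the others, with means of 5.69 core and 3.47 regulatory UMIs against 2.93 and 1.96 at steady state.

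Cells were clustered without the proteasome and immunoproteasome genes, the genes that work with them, and the ubiquitin, CCT and ribosomal protein genes. The cell type markers were not left out, so they could shape the clusters that they name. The result was 13 clusters, 5 of them named from markers. Most clusters came mainly from 1 library, so that a cluster may be that library and not a cell type. No cluster held 50 or more cells in both the steady-state and day 1 libraries. The monocyte-like cluster 1 held 1098 day 1 cells (39.3% of that library) and 1 steady-state cell. Clusters 5 and 8 held 493 and 198 steady-state cells, but only 8 and 23 day 1 cells. The day 1 ratios to steady state were thus not tested within a cluster. In the day 1 library, 8 clusters held 50 or more cells, and all 8 had core levels above every cluster of that size in the other libraries. Their core sums ran from 5084 CPM (4700 to 5490) in cluster 3 to 6094 CPM (5789 to 6412) in the dendritic cell-like cluster 11. That name rests on 4 of 7 dendritic cell markers, with Ccr7, Ccl17 and Ccl22 among the leading genes. The markers Zbtb46, Xcr1 and Clec9a had 0 UMIs in the whole day 1 library, so the name is tentative. Steady-state clusters were at 2584 and 3684 CPM, and day 5 clusters ran from 3642 to 4516 CPM. For the regulatory genes the ranges touched: day 1 clusters ran from 2894 to 4333 CPM, and the highest day 5 cluster, the cycling cell-like cluster 12, was at 2950.4 CPM. The lowest day 1 clusters, 2 and 3, were also the shallowest, with medians of 1264 and 1290 UMIs per cell. The part of depth in their values was not tested.

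**Figure D5:**
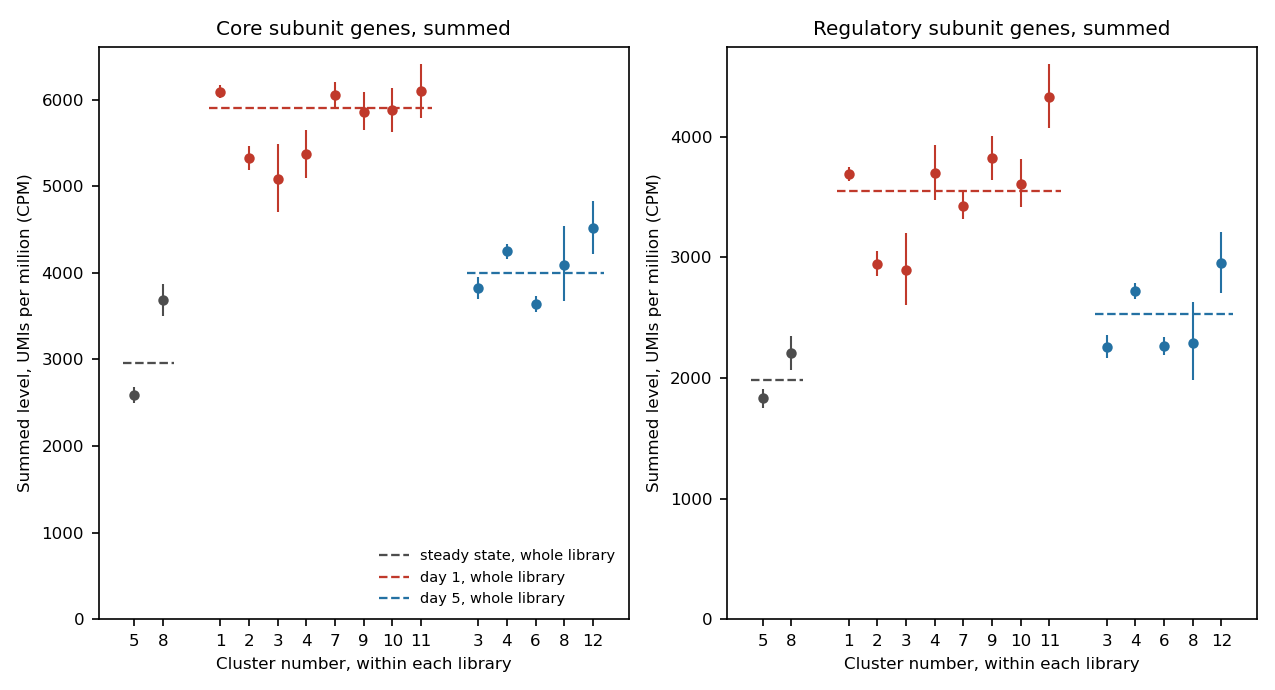
Summed level of the core (left) and regulatory (right) genes in each cluster with 50 or more cells in a library, in CPM, with exact 95% counting intervals; colours mark the library and dashed lines its overall level. All 8 day 1 clusters have core levels between 5084 and 6094, above the steady-state and day 5 clusters.

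Within the steady-state library, the 198 epineurial macrophage-like cells of cluster 8 (Cd209f, Cd209g, Fcna and Lyve1 among the leading genes) had more proteasome UMIs than the rest. Their core level of 3684 CPM was 1.36-fold that of the other steady-state cells (1.28 to 1.44), and their regulatory level was 1.15-fold (1.07 to 1.24). The 493 cells of the larger cluster 5, led by Lilra5 and Hpgd, were at 2584 CPM. The median depth of these clusters was almost the same, at 2215 and 2235 UMIs per cell. Cluster 8 was also found at day 5, in 52 cells, where the core level was 4088 CPM, 1.11-fold that of the same cluster at steady state with an interval across 1 (0.986 to 1.25). In the 2 clusters with 50 or more cells in both crush libraries, the core level was lower at day 5: in cluster 3 it was 0.752 of day 1 (0.691 to 0.819) and in cluster 4, led by MHC class II genes, 0.791 (0.749 to 0.837).

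The role groups did not vary alike among the day 1 clusters. Cluster 7, led by Slpi and Mmp12, had the most catalytic UMIs, at 1627 CPM or 1.34-fold the other day 1 cells (1.27 to 1.41), although its core sum was only 1.03-fold. Base ATPases were highest in cluster 10, led by Stard6 and Ch25h, at 1137 CPM (1.33-fold, 1.20 to 1.48), and lowest in the shallow cluster 2 at 600.2 CPM. The 151 cells of cluster 9, led by the interferon-induced genes Rsad2, Cxcl10 and Ifit3, had the highest PA28 level: Psme1, Psme2 and Psme2b summed to 1318 CPM, 1.46-fold the rest (1.34 to 1.59). The immunoproteasome genes in cluster 9 were 1.98-fold the rest (1.84 to 2.13). The core sum there was 0.993 of the rest (0.954 to 1.03) and the standard catalytic genes 0.968 (0.888 to 1.05). The dendritic cell-like cluster showed the same order, with PA28 genes at 1266 CPM, 1.38-fold the rest (1.23 to 1.55), immunoproteasome genes at 1.73-fold (1.56 to 1.92) and the standard catalytic genes at 0.834 (0.735 to 0.944). Clusters 9 and 11 were defined on the same cells without these genes, and the values are a description of them.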

How the data were processed

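The 3 deposited tables hold UMI counts per gene and cell barcode, made by the authors with Cell Ranger 2.0.2 on mm10, per the submitters' processing notes. The counts are whole numbers and were not normalized. Barcodes with fewer than 200 genes or over 10% mitochondrial UMIs were left out (3, 3 and 0 barcodes). No doublet caller was run, and the 2% of barcodes with most UMIs were left out in an alternative.

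UMIs were summed over the cells of each library and divided by the library total (CPM). A floor of 3 UMIs equals 1.81, 0.377 and 0.543 CPM. CPM carry exact Poisson intervals and ratios exact conditional binomial intervals (scipy 1.17.1), checked on simulated counts. PCR copies are removed by UMIs, and the intervals cover counting error only. Genes with 10 CPM or more in any library and over 3 UMIs in either library of a comparison were the background.

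Clusters were built with numpy 2.4.6, scikit-learn 1.9.0 and python-igraph 0.11.9 (2000 variable genes, 30 principal components, 15 neighbours, Leiden resolution 1), without integration. A cluster was named where 3 or more markers of a class were at 2-fold or more and 2 or more stood among its 10 leading genes. The macrophage class was barred from naming a cluster, so an unnamed cluster may still hold macrophages. This naming rule was set after earlier results were known.

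All members are accounted for by role. Full values were given for the catalytic genes, Psme1, Psme2 and, in each comparison, the 6 members with the largest absolute log2 ratio among the 37 at 50 CPM or more. Psmg1 falls outside that rule and was named after its values were seen. The members, lists and markers were chosen with earlier results of these data known. Gene positions are from GENCODE M21. Alternatives covered scaling, cells, filters, fold and clustering resolution. A table that pools the 3 libraries was not used here. Some genes of the fixed lists are not reported here.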

Additional observations from a re-analysis of the deposited data

How the results depend on the processing

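No paired analysis was possible because each group is 1 library, and for the same reason no library could be left out in turn. Of 162 recomputed values, 127 stayed within counting error or within 1.5 times the count, 35 moved and 0 were scored as reversed. A reversal could be scored only for a median or a summed ratio that was 1.5-fold or more in the main setting. Counts, cluster levels and all day 5 against steady state values could not be scored as reversed. The same held for the summed ratios of day 5 against day 1 and for the sums without Psma7 or Psme2. The 0 says nothing about any of these. Members kept their sign in every setting for 41 of 44 genes at day 1 against steady state, 35 at day 5 against steady state and 40 at day 5 against day 1. A total without mitochondrial, ribosomal protein and the 20 most abundant genes gave, at day 1 against steady state, a median log2 ratio of 0.72, a core ratio of 1.82 and a regulatory ratio of 1.64. At day 5 against steady state it gave 0.30, 1.42 and 1.34, and at day 5 against day 1 10 members lower, -0.38, 0.778 and 0.818. Median-of-ratios scaling gave -0.56 and a core ratio of 0.688 at day 5 against day 1, and equal weighting of cells a median of -0.56. With 50 CPM as the minimum the medians were 0.90, 0.33 and -0.61 in the 3 comparisons. With 2-fold as the threshold, the counts were 18 higher, 2 higher and 3 lower. Without Psma7 the core ratios were 2.13, 1.40 and 0.659, and without Psme2 the regulatory ratios were 1.70, 1.19 and 0.696. Leaving out Psme2b, an alternative chosen after seeing the data, moved no value past these limits. Against steady state at day 5, the median was 0.27 without the dendritic, cycling and fibroblast clusters (16, 72 and 70 cells), and 0.30 without the barcodes with most UMIs. Members lower at 1.5-fold were then 1, also 1 without a filter on low values, and 3 after thinning, in place of 0. Between day 5 and day 1 the median without those barcodes was -0.64. At Leiden resolution 0.5 the lowest day 1 cluster had a core level of 4522 CPM (4119 to 4954). The day 5 clusters ran from 3822 to 4069.9 CPM, the highest with an interval of 3650.5 to 4524, which overlapped that of the lowest day 1 cluster. The highest day 5 regulatory level was 2544 CPM. These day 5 ranges leave out the cycling cell-like cluster, which had 49 day 5 cells there, under the minimum of 50. At resolution 1 that cluster had 50 day 5 cells and the highest day 5 regulatory level, so the lower maximum does not show that the ranges separate. The cause of these shifts was not tested beyond what each alternative changes by construction. Depth limits the genes with the fewest UMIs at steady state: Psme4 (20), Psmg1 (23) and Psmf1 (33).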
